A study of Mus musculus with 30 samples.

Results

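The subject here is the H3K27ac landscape of 10 genes that make, assist or read methylation of lysine 9 on histone H3 (H3K9), out of 21897 protein-coding genes with a single locus in the annotation. They were chosen by name: Ehmt2 (encoding G9a), Ehmt1 (encoding Glp), Wiz, Suv39h1, Suv39h2, Setdb1, Setdb2, Cbx5, Cbx1 and Cbx3. Not all of them encode methyltransferases, since Wiz encodes a zinc finger partner of G9a/Glp and the 3 Cbx genes encode the heterochromatin protein 1 (HP1) readers. Coordinates are of mm10 (GRCm38). For each gene, peaks within 2.5 kb of any annotated transcription start site and within 50 kb were taken from 4 peak lists.

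The study compared CK1750 and Tnm2, 2 lines of mouse lung adenocarcinoma cells. Each line was kept in DMSO, the solvent, or in UNC0638 at 1 µM, a small molecule that inhibits G9a and Glp. Chromatin immunoprecipitation and sequencing (ChIP-seq) of histone H3 acetylated at lysine 27 (H3K27ac), which marks active promoters and enhancers, was done in 9 samples, 3 of CK1750 in DMSO and 2 in each of the other 3 groups. The groups are written CK1750-DMSO and CK1750-UNC0638, then Tnm2-DMSO and Tnm2-UNC0638, and values follow that order. The H3K9me2 and input DNA samples (21 of 30) were not analysed here. The 3 CK1750-DMSO samples carry 2 replicate numbers, since 1 replicate was sequenced again, and both CK1750-UNC0638 samples carry the same number, while the Tnm2 groups have 2 numbers each. The labels give no exposure time, and the study's methods give a single time for its cell culture experiments with drugs, with medium and drug renewed midway, but none for ChIP-seq alone. Each group is a single cell line in culture.

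G9a and Glp act as a heterodimer that mono- and dimethylates H3K9 in euchromatin. Suv39h1 and Suv39h2 place the trimethyl mark on pericentric heterochromatin, and Setdb1 places it on retroelements and other silenced sequence with its partner Atf7ip and the corepressor Trim28. HP1 proteins bind methylated H3K9 through a chromodomain. H3K27ac at a start site is associated with an active promoter, but it is not a measure of RNA or protein, and no expression values were analysed here.

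Each group has 1 list, assigned by the labels to merged samples, so no spread between replicates exists and no difference between lists could be tested. The CK1750 lists held 27367 (DMSO) and 24601 (UNC0638) peaks, and those of Tnm2 30641 (DMSO) and 18794 (UNC0638). Sequencing depth is unknown from peak lists. The caller's score is -10 log10 of a peak's P value and depends on depth, so scores were not compared between lists. Instead, the score of the best start-site peak of a gene was expressed as a percentile among all peaks of its list, and a difference of more than 10 percentile points was counted. Start-site peaks were present in every list for 5 of 6 epithelial markers (Cdh1, Krt8, Krt18, Krt19 and Nkx2-1) and in none for Epcam. Of 3 markers of other cells, Ptprc (blood) had no peak in any list, while Col1a1 (fibroblasts) had a peak in 3 lists and Pecam1 (endothelium) in both Tnm2 lists. The Col1a1 percentile was 37.9 in CK1750-DMSO, 1.89 in CK1750-UNC0638 and 36.1 in Tnm2-DMSO, and that of Pecam1 was 43.3 in Tnm2-DMSO and 73.6 in Tnm2-UNC0638. The part of other cells in the results was not tested.

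The promoters of the 10 genes were rich in CpG. In the RefSeq promoter records (GRCm38.p6, 250 bases before to 50 after the start), all 10 genes were found. Their median GC content was 66.8%, against 52.7% over all 27025 promoters, and their median number of CpG dinucleotides was 28.5 against 7. Suv39h1 and Setdb1 had the fewest CpG, 15 each. The 5 sequences printed here belong to the genes whose start-site peaks differed most between lists in rank or presence (Suv39h1, Suv39h2 and Setdb1) and to those of the enzymes that UNC0638 inhibits (Ehmt2 and Ehmt1). They run 5′ to 3′ on the strand of the gene, upstream of the RefSeq start and without exons of coding genes, and capitals mark matches on either strand to the motifs searched.
Ehmt2 (chr17:34898266-34898462, plus strand): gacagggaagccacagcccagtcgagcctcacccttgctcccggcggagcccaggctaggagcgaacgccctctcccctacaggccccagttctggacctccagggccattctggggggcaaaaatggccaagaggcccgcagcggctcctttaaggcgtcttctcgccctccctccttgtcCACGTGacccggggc
Ehmt1 (chr2:24919643-24919859, minus strand): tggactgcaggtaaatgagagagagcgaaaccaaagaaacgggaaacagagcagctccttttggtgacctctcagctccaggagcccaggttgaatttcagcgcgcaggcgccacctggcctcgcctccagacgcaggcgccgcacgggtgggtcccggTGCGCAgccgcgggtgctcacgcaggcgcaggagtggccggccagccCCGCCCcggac
Suv39h1 (chrX:8074761-8075010, minus strand): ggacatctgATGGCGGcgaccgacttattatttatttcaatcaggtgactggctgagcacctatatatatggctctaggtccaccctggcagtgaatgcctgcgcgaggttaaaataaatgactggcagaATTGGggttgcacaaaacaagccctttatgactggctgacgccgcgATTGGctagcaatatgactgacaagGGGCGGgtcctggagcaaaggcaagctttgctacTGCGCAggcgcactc
Suv39h2 (chr2:3475032-3475236, minus strand): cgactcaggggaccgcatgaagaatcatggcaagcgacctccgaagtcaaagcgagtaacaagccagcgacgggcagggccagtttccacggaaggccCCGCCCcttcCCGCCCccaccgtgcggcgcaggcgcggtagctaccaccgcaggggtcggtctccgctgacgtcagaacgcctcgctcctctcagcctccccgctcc
Setdb1 (chr3:95357203-95357452, minus strand): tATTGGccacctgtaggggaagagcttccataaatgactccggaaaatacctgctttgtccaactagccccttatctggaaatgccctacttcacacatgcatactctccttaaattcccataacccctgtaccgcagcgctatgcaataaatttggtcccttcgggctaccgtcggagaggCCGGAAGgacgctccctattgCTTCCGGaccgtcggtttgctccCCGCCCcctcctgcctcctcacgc

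Each motif was searched on both strands. CCAAT is the site of NF-Y. Sp1 binds GGGCGG, and the E-box searched was CACGTG. For ETS factors the letters CCGGAAG were used. TGCGCA is the core of the NRF1 motif. The core of the YY1 motif is ATGGCGG, and the TATA box was written TATAAA. Over the full promoter records, GGGCGG was found in 9 of 10 members and in 35.9% of all promoters. ATGGCGG was found in 5 of 10 members and in 4.21% of all, and TGCGCA in 4 of 10 and in 8.07%. CCAAT was found in 5 members and in 38% of all, CACGTG in 2 and in 7.24%. CCGGAAG was found in 1 member, Setdb1, which held 2 facing copies, and in 9.14% of all promoters. No member held TATAAA, which was found in 14.2% of all. CACGTG and TGCGCA read the same on both strands, and in the Cbx5 promoter 1 match of ATGGCGG overlapped 1 of GGGCGG. These matches describe letters and not bound sites. The shares of all promoters were not matched for GC or CpG content, in which the members differed from promoters at large.

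**Figure D1:**
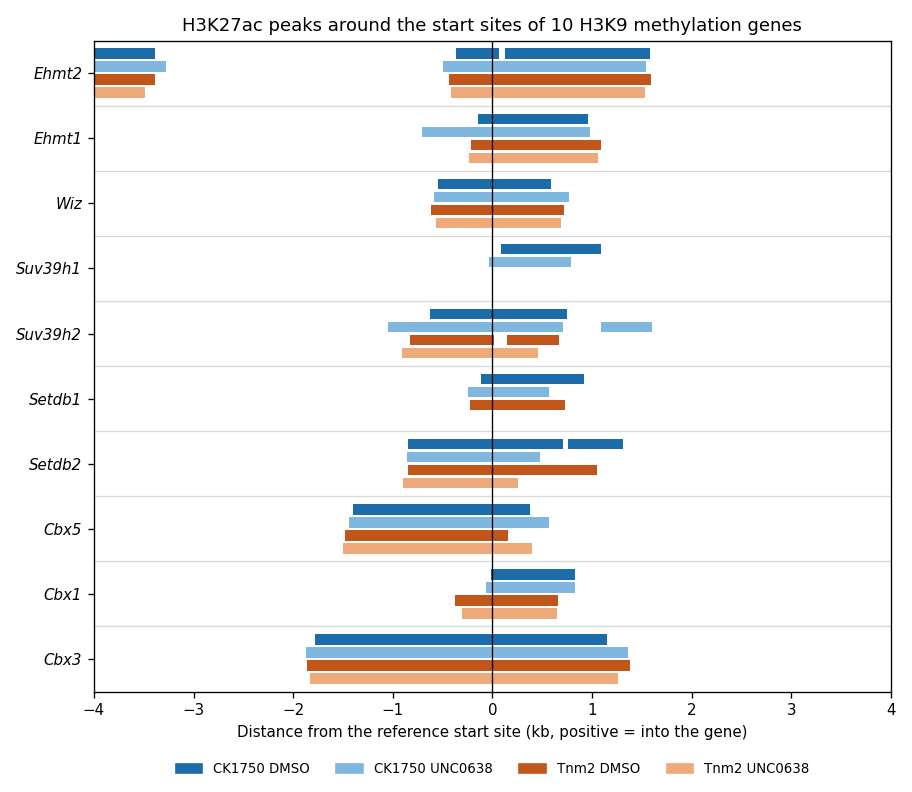
Bars are H3K27ac peaks drawn to scale by distance (kb) from the reference start site of each gene, with positive values running into the gene and 1 lane for each of the 4 lists. No bar is drawn at Suv39h1 in either Tnm2 list or at Setdb1 in Tnm2-UNC0638, and the Suv39h2 bar of Tnm2-DMSO is split in 2.

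A start-site peak was found for 10 of 10 genes in CK1750-DMSO (background 50% of all protein-coding genes), 10 of 10 in CK1750-UNC0638 (background 49.1%), 9 of 10 in Tnm2-DMSO (background 49.4%) and 8 of 10 in Tnm2-UNC0638 (background 41.2%). The missing genes were Suv39h1 in both Tnm2 lists and Setdb1 in Tnm2-UNC0638. Among the genes with a peak, the median percentile was 78.6, 73.1, 81.6 and 74.2 in the same order of lists, beside medians of 77.2, 74.1, 77.3 and 69.1 over all protein-coding genes with a peak. The genes thus carried peaks more often than coding genes at large, at ranks near those of the average marked promoter. Among themselves they spanned most of the scale, from Cbx3 near the top to Suv39h2 and Setdb1, each below percentile 25 in 1 list.

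**Figure D2:**
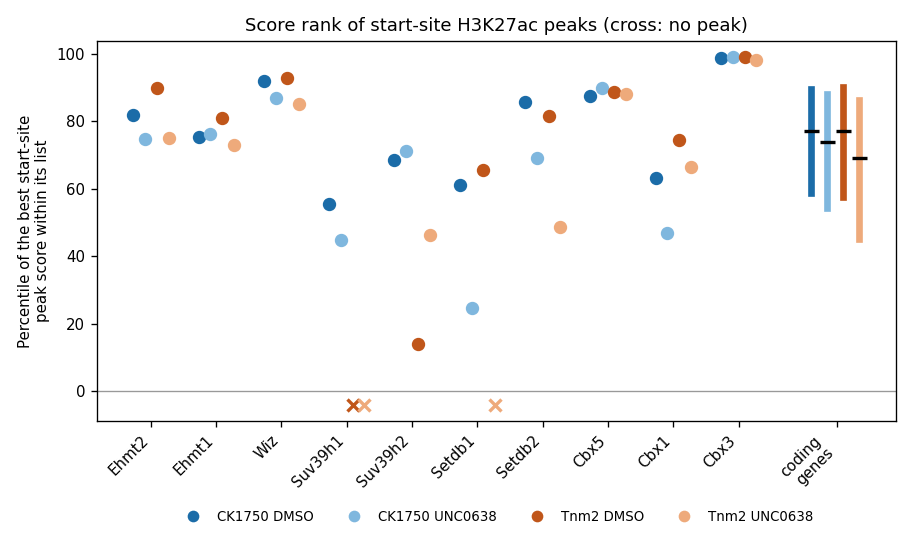
Points give the percentile of the best start-site peak score within its own list (vertical axis) for each gene and list, and crosses mark genes with no peak. Thick bars at the right span the middle 50% of all protein-coding genes with a peak, with the median as a dash; Cbx3 sits above 98 in every list, while Suv39h2 and Setdb1 spread most widely.

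Ehmt2 encodes G9a, the main target of UNC0638. Its gene lies at chr17:34898469-34914052, plus strand. The best start-site peak scored 679.8 (percentile 81.8) in CK1750-DMSO, 501 (74.9) in CK1750-UNC0638, 807 (89.9) in Tnm2-DMSO and 244 (75.2) in Tnm2-UNC0638. The rank was lower with UNC0638 in both lines, by more than 10 points in Tnm2 only. With equal numbers of peaks from each list the Tnm2 change was -8.38, inside 10 points. Relative to the median change of all protein-coding genes, Ehmt2 changed by -4.62 in CK1750 and -5.2 in Tnm2. In CK1750-DMSO the peak was split in 2 just downstream of the start, and in the other lists 1 peak of 1954 to 2044 bp covered it. The start of C2, a complement gene on the opposite strand, lies 204 bp away, so the peak cannot be assigned to 1 of these genes. The second cluster of Ehmt2 start sites, inside the gene, had no peak in any list.

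Ehmt1 encodes Glp, the partner of G9a, and lies at chr2:24789928-24919614, minus strand. Its start-site peak scored 468 (percentile 75.4) in CK1750-DMSO, 539.9 (76.4) in CK1750-UNC0638, 473 (81.0) in Tnm2-DMSO and 227 (73.1) in Tnm2-UNC0638. These 4 percentiles lay within 10 points of each other. Of 9 clusters of annotated starts, only the first had a peak, and the 8 downstream clusters had none in any list.

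Wiz, which encodes a zinc finger protein that binds G9a/Glp, lies at chr17:32354055-32389439, minus strand, and was marked at 2 start-site clusters. The best peak of the gene scored 1426 (percentile 92.0) in CK1750-DMSO, 972 (86.9) in CK1750-UNC0638, 1029 (93.0) in Tnm2-DMSO and 364 (85.1) in Tnm2-UNC0638. The 5′ cluster reached percentiles of 92.0, 83.0, 90.8 and 75.1 in the same order, and the internal cluster 91.4, 86.9, 93.0 and 85.1. The 5′ peak ranked above the internal peak only in CK1750-DMSO. The start of Rasal3 lies 2069 bp from a Wiz start. A further, small peak at the internal cluster in CK1750-DMSO (score 77.7) lies in sequence with 36 near-identical copies in the genome.

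**Figure D3:**
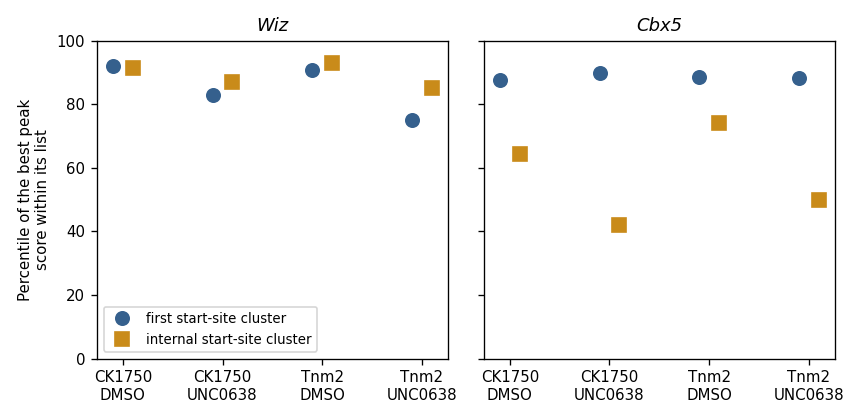
Percentile of the best peak score within its list (vertical axis) at the first (circles) and the internal (squares) start-site cluster of Wiz and Cbx5 in the 4 lists. The Wiz clusters differ most in Tnm2-UNC0638, at 75.1 and 85.1, and the internal Cbx5 cluster ranks below the first in every list.

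Suv39h1 (chrX:8061171-8074760, minus strand) encodes a trimethylating H3K9 enzyme of pericentric heterochromatin. Its start-site peak scored 189 (percentile 55.6) in CK1750-DMSO and 151 (44.9) in CK1750-UNC0638, and neither Tnm2 list had one. It was the lowest-ranked of the 10 genes in CK1750-DMSO. In CK1750 the peak began downstream of the start with DMSO and covered only 39 of the 250 upstream bases printed above with UNC0638. The nearest peak to a Suv39h1 start in Tnm2 was 21.5 kb away in both lists. No other gene starts within 2.5 kb.

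Suv39h2, the paralogue of Suv39h1, lies at chr2:3455815-3475031, minus strand, with no other start within 2.5 kb. Its best peak scored 332 (percentile 68.7) in CK1750-DMSO, 423 (71.4) in CK1750-UNC0638, 60.2 (13.8) in Tnm2-DMSO and 110.0 (46.4) in Tnm2-UNC0638. The gene ranked higher in both CK1750 lists, where it lay below the median of coding genes with a peak, than in the Tnm2 lists, and lowest in Tnm2-DMSO. In Tnm2-DMSO the start was covered by 2 weak peaks (scores 54.0 and 60.2) of 1374 bp in all, and with UNC0638 by 1 peak of 1369 bp, so the covered length was similar.

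Setdb1 encodes the H3K9 methyltransferase that silences retroelements, and lies at chr3:95323525-95357202, minus strand. Its start-site peak scored 238 (percentile 61.3) in CK1750-DMSO, 83.7 (24.6) in CK1750-UNC0638 and 234 (65.5) in Tnm2-DMSO, and none was listed in Tnm2-UNC0638, where the nearest peak was 40.6 kb away. Both DMSO lists thus had a peak of middle rank, and both UNC0638 lists had a weak peak or none. Part of these peaks lies in sequence that occurs a second time, inverted, 70.3 kb away at chr3:95427577-95428476 (GRCm38), at 98.8% identity over 904 bp of the CK1750 DMSO peak. The copy held a peak in the same 3 lists (scores 163, 74.1 and 94.1) and none in Tnm2-UNC0638. Reads from such copies cannot always be told apart, so the Setdb1 values are uncertain.

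Setdb2, a further SET domain gene of this family, lies at chr14:59402009-59440884, minus strand. Its start-site peak scored 882 (percentile 85.7) in CK1750-DMSO, 383 (69.1) in CK1750-UNC0638, 490.3 (81.6) in Tnm2-DMSO and 116 (48.7) in Tnm2-UNC0638. The rank was lower with UNC0638 in both lines by more than 10 points, the only member with a peak in all 4 lists for which this was so. The peak is shared with Cab39l, which starts 88 bp away on the opposite strand.

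Cbx5 encodes HP1 alpha and lies at chr15:103191544-103239816, minus strand. Its best peak scored 1004 (percentile 87.7) in CK1750-DMSO, 1166 (89.8) in CK1750-UNC0638, 735 (88.6) in Tnm2-DMSO and 422 (88.1) in Tnm2-UNC0638. These ranks lay within 3 points of each other. In every list the peak also covers the start of Hnrnpa1, a splicing factor gene that begins 616 bp away on the opposite strand, and it cannot be assigned to 1 of these genes. At the internal start cluster of Cbx5 the scores were lower, at 271, 137, 336 and 119.

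Cbx1 encodes HP1 beta and lies at chr11:96789127-96808640, plus strand, with no other start within 2.5 kb. Its start-site peak scored 261 (percentile 63.4) in CK1750-DMSO, 162 (47.0) in CK1750-UNC0638, 344 (74.6) in Tnm2-DMSO and 184 (66.6) in Tnm2-UNC0638. Cbx1 was the only gene that ranked higher in Tnm2 than in CK1750 by more than 10 points under both treatments.

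Cbx3 encodes HP1 gamma (chr6:51470360-51483704, plus strand) and had the strongest peak of the 10 genes in every list. It scored 3100 in both CK1750 lists (percentiles 98.8 and 99.0), where 3100 is the value at which the caller's scores pile up, 2757 (99.1) in Tnm2-DMSO and 1153 (98.4) in Tnm2-UNC0638. The peak was 2933 to 3242 bp wide. It also covers the start of Hnrnpa2b1, which lies 466 bp away on the opposite strand.

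The comparison between treatments asked whether inhibition of G9a/Glp went with another H3K27ac rank at these genes. In CK1750, 4 of 10 genes ranked lower with UNC0638 by more than 10 points (background 19.4% of 10413 protein-coding genes with a peak in both lists) and 0 ranked higher (background 6.07%). The 4 were Setdb1 (change -36.7 points), Setdb2 (-16.6), Cbx1 (-16.4) and Suv39h1 (-10.7). No member lost its start-site peak (0 of 10, background 4.86%), and since all 10 had one, none could gain one (background 3.01%). Only 1.01% of protein-coding genes had a lower change than Setdb1. That value is uncertain, since part of the Setdb1 peak lies in duplicated sequence, and no share among genes of like starting rank was computed. The peak at the copy was also lower with UNC0638, at percentile 19.53 against 51.75 with DMSO. The median change was -5.99 points over the 10 genes and -2.29 over all protein-coding genes. The changes were -6.91 at Ehmt2 and 0.97 at Ehmt1, and the call for Suv39h1 ended under 3 alternatives, at -4.97 to -8.45.

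In Tnm2, ranks of promoters among all peaks of a list were lower with UNC0638, with a median of -9.52 points over 8895 protein-coding genes. This median depended on the unequal lengths of the 2 lists. It was -0.35 with equal numbers of peaks from each list and -4.94 when ranked among gene promoters. Beside the shift of -9.52, 2 of 8 members ranked lower by more than 10 points (background 48.5%) and 1 ranked higher (background 1.66%). Setdb2 changed by -33.0 points and Ehmt2 by -14.7, while Suv39h2 changed by 32.5. Of all protein-coding genes, 99.85% had a lower change than Suv39h2. That gene started at percentile 13.8 with a score of 60.2, near the cutoff of 50. The median coding gene with a peak in Tnm2-DMSO stood at 77.3 and had less room to rise. No share among genes of like starting rank was computed. With equal numbers of peaks from each list the Suv39h2 change had no value, and 0 members ranked higher. The Ehmt2 value was not beyond that of genes at large, since 37.3% of them had a lower change, and relative to the median of all genes it was -5.2. The Setdb1 peak was lost (background 17.7% of genes with a peak in the DMSO list, and 15.6% of those at percentiles 60 to 70 there), and Suv39h1, without a peak in DMSO, did not gain one (background 1.18%). The median change of the 8 members was -7.86. The changes of Ehmt1, Wiz, Cbx5, Cbx1 and Cbx3, all inside 10 points and below 0, turned above 0 relative to the median of all genes (1.60 to 9.05).

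**Figure D4:**
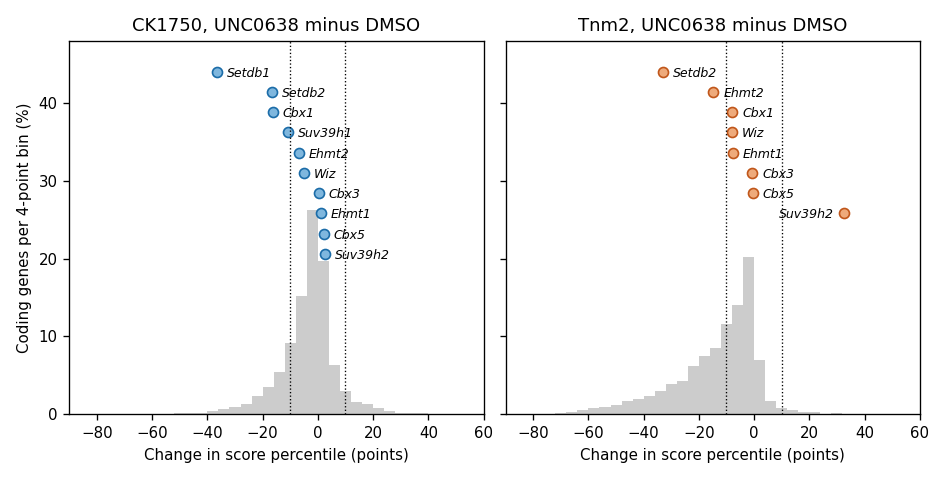
Grey bars give the share of protein-coding genes (%) by change of percentile with UNC0638 in 4-point bins (horizontal axis), and labelled points give the members at their change, stacked for legibility, with dotted lines at 10 points either way. In CK1750 Setdb1 lies farthest left at -36.7, and in Tnm2 Suv39h2 lies alone on the right at 32.5.

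Between the lines under DMSO, most of these genes ranked alike. Of 9 members with a peak in both, 1 ranked lower in Tnm2 by more than 10 points (background 17%) and 1 ranked higher (background 12.9%). Suv39h2 differed by -54.8 points, and 0.435% of protein-coding genes had a lower value. Its Tnm2-DMSO peak scored 60.2, near the cutoff of 50, and no share among genes of like starting rank was computed. Cbx1 differed by 11.2 points. Ehmt2, at 8.13, lay just inside the 10 points, and it passed them when ranked among gene promoters (16.0) and with equal numbers of peaks from each list (10.1). The Suv39h1 peak was absent from Tnm2 (background 7.49%, and 10.1% of genes at percentiles 50 to 60 in CK1750). Since all 10 members had a peak in CK1750-DMSO, none could have one in Tnm2 only (background 6.25%). The genes that were lower or absent in Tnm2 under DMSO by these rules were thus the 2 Suv39h genes. With equal numbers of peaks, the weak Suv39h2 peak of Tnm2-DMSO was left out, its change had no value, and 0 members were called lower.

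Under UNC0638, 2 of 8 members ranked lower in Tnm2 than in CK1750 (background 41%) and 1 ranked higher (background 5.33%). These were Suv39h2 (-25.0 points), Setdb2 (-20.4) and Cbx1 (19.6). The median over all protein-coding genes was -6.31, and -1.5 with equal numbers of peaks from each list. Of all protein-coding genes, 18.5% had a lower value than Suv39h2, 23.6% than Setdb2 and 97.6% than Cbx1. Suv39h1 and Setdb1 had a peak in CK1750 only (background 18.7%). Their CK1750-UNC0638 peaks stood at percentiles 44.9 and 24.6. Of genes at percentiles 50 to 60 there, 33.5% had no peak in Tnm2-UNC0638, and no share was computed for lower percentiles. All 10 members had a peak in CK1750-UNC0638, so none could have one in Tnm2 only (background 2.61%). The 2 comparisons between lines and the 2 between treatments use the same 4 lists and are not independent of each other.

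Among 17 other genes of the same pathway, listed by function, 12 had a start-site peak in CK1750-DMSO, 14 in CK1750-UNC0638, 13 in Tnm2-DMSO and 12 in Tnm2-UNC0638. Cdyl2, Atf7ip2 and Prdm16 had none in any list. In CK1750, Atf7ip, which encodes the partner of Setdb1, ranked lower with UNC0638 by more than 10 points (change -14.8), while Mphosph8 of the HUSH silencing complex (11.3) and the maintenance DNA methyltransferase gene Dnmt1 (14.5) ranked higher, out of 12 genes with both peaks. In Tnm2, 4 of 12 ranked lower and 0 higher: Atf7ip (-26.7), Trim28 (-16.8), Mphosph8 (-29.0) and Dnmt1 (-15.5). Uhrf1 and Chaf1a gained a peak in CK1750, and Chaf1a lost one in Tnm2, with scores of 57.1, 107 and 58.1. The background shares are those given above for each comparison.

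Within 50 kb of the 10 genes lay 55 peaks in CK1750-DMSO, 50 in CK1750-UNC0638, 52 in Tnm2-DMSO and 37 in Tnm2-UNC0638. Ehmt2, in a gene-dense stretch of chromosome 17, had the most in every list (16, 11, 11 and 10), and Setdb1 had 2, 2, 2 and 1. Pieces of a split peak count separately, and the Ehmt2 start held 2 peaks in CK1750-DMSO and 1 in CK1750-UNC0638. Of the CK1750-DMSO peaks near Ehmt2, only that at chr17:34941445-34942352 overlapped none in CK1750-UNC0638. Peaks of all 10 genes joined into 63 regions. Of these, 31 (49.2%) were present in all 4 lists, 9 (14.3%) in 3, 4 (6.35%) in 2 and 19 (30.2%) in 1. Over all 37710 joined regions of the genome, the shares were 34.2%, 12.9%, 16.4% and 36.5%. In both CK1750 lists but in neither Tnm2 list lay 3 regions (4.76%, beside 5.78% of all regions), 1 of them the Suv39h1 start, and the reverse held for 0 (beside 3.93% of all regions).

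**Figure D5:**
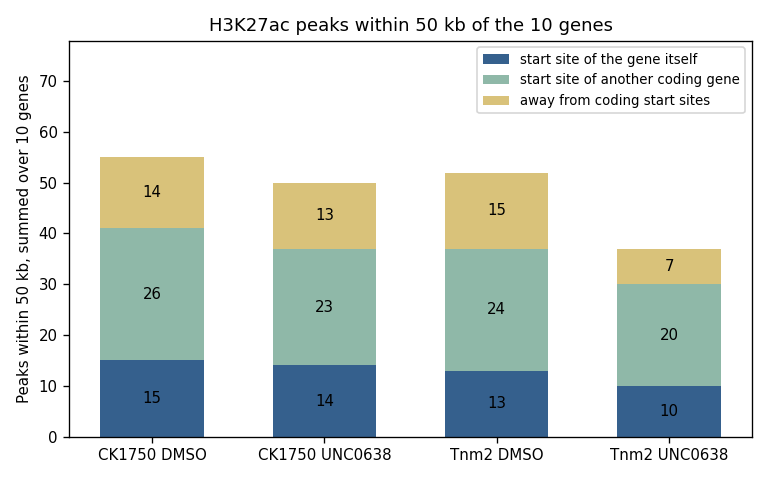
Stacked bars count H3K27ac peaks within 50 kb of the 10 genes in each list, split into those at a start site of the gene itself, at a start site of another coding gene, and away from coding start sites. Tnm2-UNC0638 has the fewest in each class, with 10, 20 and 7.

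The strongest peak within 50 kb that was not at a member's own start lay in every list at the start of Cers2, a ceramide synthase gene, near Setdb1. Its scores were 3119, 2160, 1369 and 690.3 in the order of the lists above. The percentiles of this neighbour were 99.8, 96.2, 95.6 and 94.8. The strongest peak away from any coding start site was intergenic, upstream of Suv39h1 and nearest to Was, at chrX:8096017-8097512 (mm10) in CK1750-DMSO. It was present in all 4 lists, at percentiles of 96.8, 94.5, 92.3 and 91.2, including both Tnm2 lists that had no peak at the Suv39h1 start. To which gene it belongs cannot be told from these lists.

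With UNC0638, 8 of 55 peaks (14.6%) within 50 kb were lost in CK1750 (background 21.8% of all peaks of the list) and 6 of 50 (12%) were gained (background 19.6%), and all 14 of them scored under 100. In Tnm2, 16 of 52 (30.8%) were lost (background 43.1%), 9 of them under a score of 100, and 3 of 37 (8.11%) were gained (background 8.81%). The shares were below or near those of all peaks. The highest-scoring lost peak in Tnm2 was that at the Setdb1 start, at chr3:95356474-95357430 (score 234). In CK1750 it was an intergenic peak 42976 bp downstream of the Ehmt2 start, at chr17:34941445-34942352 (score 88.8). The highest-scoring gained peaks were at the start of Snx11, near Cbx1, in CK1750 (chr11:96776933-96777517, score 86.3) and in a UTR of Hnrnpa1, near Cbx5, in Tnm2 (chr15:103244107-103244681, score 76.7). A peak in a Cbx5 intron, chosen after its values were seen, was found in Tnm2-DMSO only (chr15:103232583-103233807, score 233, percentile 65.3).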

How the data were processed

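H3K27ac ChIP-seq of CK1750 and Tnm2 cells was analysed from peak lists. According to the study's methods and the submitters' processing notes, reads were aligned to mm10 with bowtie2 and peaks were called by the authors with MACS 1.4.2 at a P value of 1e-05. The deposited lists give position and score, where the score is -10 log10 of P, so that 50 is the cutoff. By the labels, all samples of a group point to 1 merged list. Which libraries entered it, and whether input DNA was the control, is not given in the sources used here, and the paper states more biological replicates than the labels do.

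Start sites came from GENCODE release M21 (21897 protein-coding genes; 27 symbols with more than 1 locus were left out). Peaks overlapping a window of 2.5 kb or 50 kb on either side of a start were taken, the best score was ranked within its list (ties at their mean rank), and peaks overlapping by at least 1 bp were shared. Clusters of start sites were more than 5 kb apart. The background is the share of all protein-coding genes past the same rule. A score depends on depth and control, and a list that ends at a cutoff can lose a weak peak through a small change in either. No p-value was computed. All 10 members are named, and other genes by lists of function. The members and lists were chosen with earlier results of these data known. Near-identical copies were sought with minimap2 2.31 (at least 80% of the peak at 95% identity). Scripts (Python 3.11.15, pandas 2.3.3, numpy 2.4.6) were tested on simulated lists. Alternatives were other windows, scores, overlaps, transcripts and calls, equal numbers of peaks, and, chosen after seeing the data, changes minus the median of all genes.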

Additional observations from a re-analysis of the deposited data

Results flagged for a closer look

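For some genes the values with and without UNC0638 moved in opposite directions in the 2 lines. With 1 list a group, none of these differences was tested. The change of score percentile was 0.97 points in CK1750 and -7.81 in Tnm2 for Ehmt1, 2.15 and -0.47 for Cbx5, and 0.25 and -0.76 for Cbx3. In both CK1750 lists Cbx3 scored 3100, a value shared by 558 peaks with DMSO and 371 with UNC0638. Its 0.25 there comes from the tied ranks and not from a change of score. In Tnm2 the median over all protein-coding genes was -9.52, so all 3 genes lay above that median. Relative to the median of each line, the signs were alike in both lines, at 3.26 and 1.71 for Ehmt1, 4.43 and 9.05 for Cbx5, and 2.54 and 8.76 for Cbx3. With equal numbers of peaks from each list they were alike for Ehmt1 (4.89 and 4.19) and Cbx5 (4.63 and 6.71) but not for Cbx3 (0.51 and -0.21). Cbx3 lay above percentile 98 in every list. The other pathway genes that scored 3100 in Tnm2-DMSO also changed little in Tnm2 (Zfp644 -0.23, Prdm2 -1.17 and Mecom 0.14). The sign relative to the median thus does not set Cbx3 apart from other genes near the top. Near Suv39h2, the difference in the number of peaks within 50 kb was 1 for CK1750 and -1 for Tnm2, and near Cbx3 it was 3 and -2. The -1 counts a split peak, since the Suv39h2 start held 2 peaks in Tnm2-DMSO and 1 in Tnm2-UNC0638. Every Tnm2-DMSO peak near Suv39h2 overlapped a Tnm2-UNC0638 peak. Among the peaks gained near Cbx3 in CK1750 was a further peak at the Snx10 start, which had a peak in both treatments.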

How the results depend on the processing

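No paired analysis was possible because the lists pool the samples of a group, so the shared replicate numbers of the labels could not be used, and no replicate could be left out. Of 116 recomputed counts and medians, 82 stayed within 1.5 times the reported count or near the reported median, and 34 moved. Of 173 recomputed changes of single members, 166 kept their side of 10 points and 7 moved across it. No change past 10 points turned sign, but 20 recomputed values of smaller changes did (9 relative to the median of all genes, 7 with equal numbers of peaks and 4 ranked among gene promoters), 10 of them in Tnm2 with UNC0638 against DMSO and 9 between lines under UNC0638. The causes were not tested.

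Ranked among the best peaks of coding genes instead of all peaks, the members' median percentile was 52.8, 48.5, 57.8 and 57.0 (CK1750 with DMSO and UNC0638, then Tnm2), and Ehmt2 was higher in Tnm2 than in CK1750 under DMSO by 16.0 points, which made 2 members higher. With the 18794 highest-scoring peaks of each list, the median was 68.8, 64.8 and 75.7 in the first 3 lists. Then 1 member, Setdb2, ranked lower and 0 higher in Tnm2 with UNC0638, and Ehmt2 was no longer called lower (-8.38). Under DMSO in this setting, 0 ranked lower and 2 higher in Tnm2 than in CK1750 (Cbx1 and Ehmt2, the latter at 10.1). The weak Suv39h2 peak of Tnm2 with DMSO lies under the lowest score kept there (103), so its change has no value in that setting. In Tnm2, 5 members ranked lower at a call of 5 points, and 1 after subtracting the median of all genes.

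Within 25 kb there were 27, 26, 26 and 21 peaks, and at a score of at least 100 there were 35, 33 and 23 within 50 kb (Tnm2 with DMSO stayed within 1.5 times). Lost peaks in CK1750 numbered 15 with a reciprocal overlap of 50%, 5 within 25 kb, 0 at a score of 100 and 3 with equal numbers. Gained peaks there numbered 10 with reciprocal overlap, 3 when a peak within 1 kb counted as shared and 0 at a score of 100. Lost peaks in Tnm2 numbered 7 within 25 kb, 7 at a score of 100 and 7 with equal numbers. Gained peaks there numbered 7 with reciprocal overlap, 0 at a score of 100 and 7 with equal numbers. Depth is unknown and limits every statement on an absent peak.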
